A study of Rattus norvegicus with 23 samples.

Results

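The comparison described here was between the heart and the kidney of rats that had only sham surgery, and it covered 7 of the 23 libraries of the series, chosen by the organ and the operation given in the sample labels. The 3 Heart Sham and 4 Kidney Sham libraries came from Sprague-Dawley rats, an outbred laboratory stock, that were 13 weeks old and whose tissue was collected 4 weeks after surgery. The other 16 libraries came from hearts and kidneys of rats with a nephrectomy that removed most of the kidney tissue (NX), alone or together with a fistula joining the jugular vein to the carotid artery (AVF+NX). The labels name no genotype, sex, chamber of the heart or region of the kidney, and they call the replicates biological without tying a heart to the kidney of the same rat. RNA from frozen tissue was selected by its poly(A) tail and sequenced as strand-specific libraries, and the authors deposited whole-number read counts per gene. In whole tissue, fewer cells of a type and less RNA per cell cannot be told apart.

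The heart is built mainly of cardiomyocytes, large cells packed with sarcomeres and mitochondria, which contract when calcium is released from the sarcoplasmic reticulum and which burn fatty acids as their main fuel. The kidney is built mainly of epithelial tubules. The proximal tubule reclaims most of the filtered solutes and makes glucose, the thick ascending limb and distal convoluted tubule reabsorb salt, and the collecting duct sets water and acid excretion. Both organs also hold endothelium, fibroblasts, pericytes, smooth muscle and resident macrophages.

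Total counts were 9894716 to 11866042 in the hearts and 9069354 to 12637718 in the kidneys. Transcripts of the mitochondrial chromosome took 20.6% to 22.1% of the counts in the hearts and 7.64% to 9.51% in the kidneys. Scaling factors by TMM, which corrects for such differences in composition, were 0.76 to 0.80 in the hearts and 1.18 to 1.24 in the kidneys, so the choice of scaling bears on every modest difference below. Under scaling by total count alone the median log2 fold change of all genes moved by -0.63, and the share of called genes that were higher in heart moved from 47.1% to 24.7%. Of the genes described below, that scaling ended the calls in heart of Npr1, Slc8a1, Ppara, Irx5, Atp6v1d, Atp6v0a1, Atp6v1g2, Aqp7, Tbx3, Cd2, Nkg7 and Dusp1. It called Gja5, Eci2, Stk39, Wt1, Ace, Atp6v1g1, Atp6v1f, Kdr, Pdgfra, Pdgfrb, Csf1r, Per1, Dbp and Tbp higher in kidney, none of which was called after TMM. Levels between libraries are given as CPM, which are counts scaled to a common library size after TMM. Levels between genes are given as TPM, which also divides by gene length, and a fold change is heart over kidney. The counts were concentrated in fewer genes in heart: 407 to 461 nuclear genes made up 50% of the nuclear counts in the hearts, against 927 to 1016 in the kidneys.

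The libraries matched their labels by the defining markers. Myh6, the fast cardiac myosin heavy chain, stood at 30540, 42620 and 41120 CPM in the hearts and at 0.267, 0.396, 0.210 and 0.288 CPM in the kidneys. Umod, the main urinary protein of the thick ascending limb, had no count in any heart and stood at 2707, 2574, 2431 and 2979 CPM in the kidneys. For the 8 heart markers and the 7 kidney markers shown, no heart library overlapped a kidney library. Nppa and Myl2 were at 0 in all 4 kidneys, and Umod was at 0 in all 3 hearts. The highest level of a heart marker in a kidney was 11.7 CPM for Ryr2, the calcium release channel, whose hearts had 3558, 5795 and 5017 CPM. The highest level of a kidney marker in a heart was 6.13 CPM for Slc12a3, the thiazide-sensitive salt transporter, whose kidneys had 594, 722, 766 and 691 CPM.

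**Figure D1:**
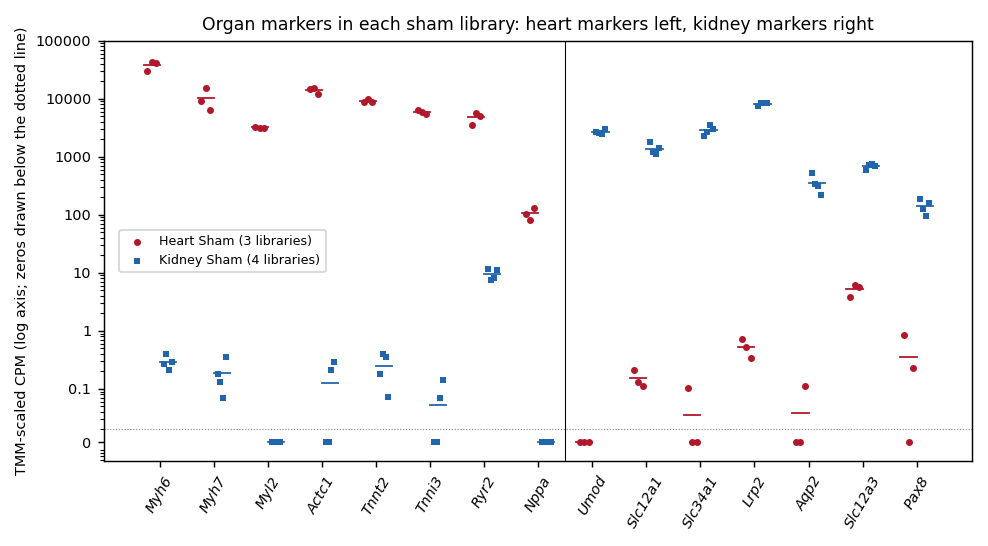
TMM-scaled CPM (log axis) of 8 heart markers and 7 kidney markers in each of the 3 heart and 4 kidney sham libraries; points are libraries, short lines are group means, and zeros are drawn below the dotted line. For every gene shown all libraries of the organ it marks lie above all libraries of the other organ, with Ryr2 up to 11.7 CPM in kidney and Slc12a3 up to 6.13 CPM in heart.

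Most genes differed between the organs. Of 14140 genes tested with edgeR's quasi-likelihood test, 11033 (78.0%) were called at a Benjamini-Hochberg adjusted p below 0.05, with 5192 (36.7%) higher in heart and 5841 (41.3%) higher in kidney. A test against a 2-fold difference called 5293 (37.4%), of which 2267 (16.0% of those tested) were higher in heart and 3026 (21.4%) in kidney. The median log2 fold change over all tested genes was -0.09, and the 2 organs did not overlap for 10978 genes (77.6%). Counts within the gene groups below are read against these shares. Differences past 16-fold were called for 510 genes in heart and 1229 in kidney, and 59 tested genes had no count in any kidney while 433 had none in any heart. A mean TPM of at least 1 in one organ with less than 0.1 in the other was met by 178 genes of the heart and 1358 of the kidney.

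Among nuclear genes the heart's most abundant transcripts per length were led by Mb, the oxygen-binding myoglobin of muscle, at a level of 17740 ± 790.3 TPM (SD, n = 3) against 0.09 TPM in kidney. Actc1 (cardiac actin) followed at 11260 TPM, Myl3 (the essential myosin light chain) at 10940 TPM, and Tnnt2 and Tnni3 (troponins T and I) at 8992 and 8671 TPM. Cox8b, a muscle form of a cytochrome oxidase subunit, stood at 6318 TPM, and Fabp3, the fatty acid carrier of muscle, at 5281 TPM. In kidney the leading protein-coding nuclear genes were Gpx3, a secreted glutathione peroxidase made by the proximal tubule, at 17230 ± 3774 TPM (SD, n = 4), and Kap, a proximal tubule protein that responds to androgen in mouse, at 8515 TPM. Fxyd2, the small regulatory subunit of the sodium pump, stood at 5579 TPM. Rmrp, the short RNA of RNase MRP, was listed at 11970 TPM in heart and 47810 TPM in kidney, and such levels of short transcripts depend strongly on the length that they are divided by.

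The largest fold changes in heart belonged to muscle genes. Mb had 14730, 13810 and 14060 CPM in the hearts and 2 counts over the 4 kidneys, a log2 fold change of 18.19. Myl2, the regulatory light chain of ventricular myosin, was at 3307, 3150 and 3181 CPM in the hearts and at 0 in every kidney, at least 58440-fold higher against a floor of 3 counts over the group. Actn2, the actinin of the Z-disc, was at 2665, 3086 and 2972 CPM in the hearts, with 3 counts over all kidneys. Xirp2, an actin-binding protein of the intercalated disc, was at 674, 1057 and 1105 CPM in the hearts and at 0 in the kidneys (at least 17200-fold), and Cox6a2, a muscle cytochrome oxidase subunit, was at 2046, 1966 and 1874 CPM with 2 counts over the kidneys. Myh6, Actc1, Myh7, Tnni3 and Nrap also had log2 fold changes of at least 15.26.

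The largest fold changes in kidney belonged to tubule transporters and enzymes. Umod was at least 22970-fold higher in kidney. Miox, the enzyme that opens the inositol ring in the proximal tubule, was at 1690, 1652, 1913 and 1758 CPM in the kidneys and at 0 in the hearts (at least 15070-fold). Slc7a13, Cyp4a8, Cyp4a2, Tmem27 (collectrin, needed for amino acid uptake), Klk1b3 and Slc22a8 (an organic anion carrier) also had no count in any heart. Slc34a1, the sodium-phosphate carrier of the brush border, had 1 count over the 3 hearts and 2325, 2666, 3585 and 2965 CPM in the kidneys, 75090-fold higher with a counting interval of 13480 to 2966000. Cyp4a2 with Cyp4a8, Klk1b3 with other kallikreins, Myh6 with Myh7 and Actc1 with the other actins are close copies, and how reads that fit several copies were counted is not given in the sources used here.

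Promoters of 4 of these organ genes are shown because they carry the recognition letters of a transcription factor family of their organ, MEF2 in muscle and HNF1 in kidney epithelium. The 120 bases before the start of each gene are from RefSeq (build GRCr8), written 5′ to 3′ on the strand of the gene, with matches in capitals. The matches are CTAAAAATA (MEF2) in the first pair, and the HNF1 motif GTTAATNAT in the second pair, where it overlaps the MCAT letters CATTCCT in Atp6v0a4 and is followed by the TATA box letters TATAAA in Slc7a12. The spans are chr1:192219717-192219836 on the minus strand for Cox6a2, chr3:72534066-72534185 on the plus strand for Xirp2, chr4:67809093-67809212 on the minus strand for Atp6v0a4 and chr2:88868104-88868223 on the minus strand for Slc7a12.
Cox6a2: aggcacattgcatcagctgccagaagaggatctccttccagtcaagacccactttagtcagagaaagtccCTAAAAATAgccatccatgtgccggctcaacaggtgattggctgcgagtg
Xirp2: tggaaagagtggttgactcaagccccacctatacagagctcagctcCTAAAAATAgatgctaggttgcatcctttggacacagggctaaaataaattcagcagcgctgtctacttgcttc
Atp6v0a4: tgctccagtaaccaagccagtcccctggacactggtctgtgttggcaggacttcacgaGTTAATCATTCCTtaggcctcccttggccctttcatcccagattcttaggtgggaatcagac
Slc7a12: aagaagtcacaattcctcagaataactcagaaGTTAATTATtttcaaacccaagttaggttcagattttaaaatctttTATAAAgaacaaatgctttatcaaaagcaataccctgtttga

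The same letters were counted, as a description, in the 250 bases before the gene start on both strands (TATAAA on the strand of the gene only). Of the 200 genes with the largest fold change in each direction, 137 of the heart set and 137 of the kidney set had a promoter in the table. The MEF2 letters stood in 7 heart promoters (5.11%), those of Casq2, Cox6a2, Nmrk2, Synpo2l, Tnni3k, Xirp1 and Xirp2, and in 1 kidney promoter (0.73%), against 0.463% of all 27457 promoters. The HNF1 letters stood in 8 kidney promoters (5.84%), those of Atp6v0a4, C5, F13b, Igfbp1, Mep1b, Prodh2, Slc7a12 and Tmed6, and in 0 heart promoters, against 0.67% of all promoters. The GATA letters AGATAAG stood in 2.92% of the heart set and 5.84% of the kidney set (2.46% of all), MCAT in 5.84% and 3.65% (4.3% of all), and the HNF4 letters CAAAGTCCA in 0 and 0.73% (0.331% of all). The CArG box stood in 2.19% and 0 (1.5% of all), and TATAAA in 10.9% of both sets (8.38% of all). Among the 10167 promoters matched to tested genes the shares were lower. They were 0.285% for MEF2, 0.433% for HNF1, 1.79% for GATA and 3.46% for MCAT. For HNF4, the CArG box and TATAAA they were 0.305%, 1.19% and 4.33%. No test was made, since the sets were chosen on the comparison itself.

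The contractile apparatus was higher in heart throughout. All 9 tested genes of the thick filament and titin list and all 9 of the thin filament list were higher in heart, with median log2 fold changes of 12.11 and 8.89 against -0.09 over all genes. Thick filament genes took 5.05% to 6.28% of all counts in the hearts and up to 0.0015% in the kidneys. Thin filament genes took 3.10% to 3.49% and 0.0166% to 0.0205%. Myh6 was 131300-fold higher in heart (log2 fold change 16.94, SE 0.24, adjusted p 3.9e-14). Myh7, the slow myosin heavy chain, was at 8979, 15200 and 6368 CPM, so Heart Sham 2 had more than 2 times the level of Heart Sham 3, while Myl2 varied little among the hearts. Mybpc3, the myosin-binding protein C of heart, was at 3495, 4388 and 4359 CPM against at most 0.288 CPM in a kidney. Tnnc1, the calcium-binding troponin, had the highest kidney level among the troponins of the list, with 10.9, 14.6, 18.3 and 10.6 CPM, and remained 192-fold higher in heart.

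The 14 Z-disc and costamere genes were also all higher in heart (median 8.01). Desmin (Des), the intermediate filament of muscle, was at 2985, 3114 and 2985 CPM in the hearts and 13.4 to 20.7 CPM in the kidneys. Cryab, a small chaperone that binds desmin, was at 3501, 3579 and 3143 CPM in the hearts and 178, 114, 78.9 and 122 CPM in the kidneys, 27.6-fold higher. Of 9 genes of the intercalated disc, which couples cardiomyocytes, 8 were higher in heart (median 2.39), among them Gja1 (a gap junction protein, 38.7-fold) and Dsp (desmoplakin, 18.0-fold). Gja5, another gap junction gene, was not called, with 8.77 to 9.33 CPM in the hearts and 8.54 to 12.9 CPM in the kidneys, and was called higher in kidney without Kidney Sham 1 (log2 fold change -0.35, adjusted p 0.036) and under total count scaling (-0.88, adjusted p 0.000125).

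Among 16 calcium handling genes 15 were higher in heart (median 5.37). Atp2a2, the calcium pump of the sarcoplasmic reticulum, was at 15880, 18640 and 17460 CPM in the hearts and 450, 476, 409 and 440 CPM in the kidneys, so it was 39.1-fold higher. Its regulator Pln (phospholamban) was at 5168, 5342 and 4984 CPM in the hearts and 2.10 to 3.38 CPM in the kidneys, 2030-fold higher. Trdn (triadin), which anchors the release channel, had 1 count over the kidneys. Fkbp1b, a protein that binds the release channel, went the other way, with 0.114 to 0.210 CPM in the hearts and 3.45 to 4.91 CPM in the kidneys (log2 fold change -4.66, SE 0.42, adjusted p 3.8e-07). Under total count scaling 12 of the 15 stayed called in heart and Fkbp1b stayed in kidney.

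Of 15 cardiac ion channel genes 14 were higher in heart (median 6.12). Kcnj11, the pore of the ATP-sensitive potassium channel, was 626-fold higher and Kcnip2, a subunit of the transient outward channel, was at 10.5, 21.6 and 18.9 CPM with no count in kidney. Kcne1, a potassium channel subunit also known from the proximal tubule, was higher in kidney (log2 fold change -2.19, SE 0.32, adjusted p 3.8e-05), at 3.45 to 5.94 CPM against 0.533 to 1.26 CPM. Over the whole family of potassium channel genes 22 of 53 tested were higher in heart and 21 in kidney, with a median of -0.04, and under total count scaling the counts were 20 and 24.

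Cardiac transcription factors were higher in heart for 16 of 17 tested genes (median 5.29). Nkx2-5, a homeobox factor of the early heart, was at 126, 124 and 113 CPM, Tbx5 at 85.7, 92.2 and 86.3 CPM and Hand2 at 17.6, 17.7 and 13.1 CPM, and all 3 had no count in any kidney. Gata4 was 858-fold higher in heart and Myocd (myocardin) 119-fold. The MEF2 factors were present in both organs: Mef2a was 3.43-fold, Mef2d 4.97-fold and Mef2c 5.43-fold higher in heart. Esrrg, a nuclear receptor of oxidative tissues, was slightly higher in kidney, with 110, 120 and 123 CPM in the hearts and 147, 132, 127 and 134 CPM in the kidneys (log2 fold change -0.20, SE 0.08, adjusted p 0.033). That call was lost without Heart Sham 1 (log2 fold change -0.15, adjusted p 0.124), Heart Sham 2 (-0.20, 0.067), Kidney Sham 1 (-0.16, 0.071) or Kidney Sham 4 (-0.20, 0.059).

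The genes of the natriuretic peptides, Nppa and Nppb, had counts in every heart and none in any kidney. Nppa was at 103, 82.5 and 131 CPM and Nppb at 153, 107 and 72.9 CPM, so the order of the hearts differed between the 2 genes. Corin, the protease that activates pro-ANP, was at 240, 236 and 204 CPM in the hearts and 0.280 to 4.45 CPM in the kidneys. Of the 14 hormone and receptor genes 12 were higher in heart (median 2.51), including Chrm2 (the muscarinic receptor that slows the heart, 1100-fold) and Adrb1 (the main cardiac beta receptor, 3.06-fold). Npr1, the receptor for Nppa and Nppb, was 1.25-fold higher in heart (adjusted p 0.033), but its log2 difference was -0.31 under total count scaling. The Npr1 call was also lost without Heart Sham 1 (adjusted p 0.111), Heart Sham 2 (0.061), Kidney Sham 2 (0.085), Kidney Sham 3 (0.063) or Kidney Sham 4 (0.08). Agtr1a, the angiotensin II receptor, was at 2.63, 4.66 and 3.19 CPM in the hearts and 55.6, 51.1, 47.6 and 50.7 CPM in the kidneys, 14.7-fold higher in kidney.

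The atrial light chains were uneven among the hearts. The 6 ventricular genes tested were all higher in heart (median 12.33, or 11.16 with genes without kidney counts at their bound). Of 6 atrial genes 5 were higher in heart. Myl7, the atrial regulatory light chain, was at 86.3 CPM in Heart Sham 1 and at 4.13 and 9.23 CPM in the other hearts, and Myl4, the atrial essential light chain, was at 2.74, 1.73 and 5.58 CPM. Hcn4, the pacemaker channel, was at 62.5, 58.9 and 33.5 CPM in the hearts and below 1 CPM in the kidneys. How much atrium each sample held was not tested.

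**Figure D2:**
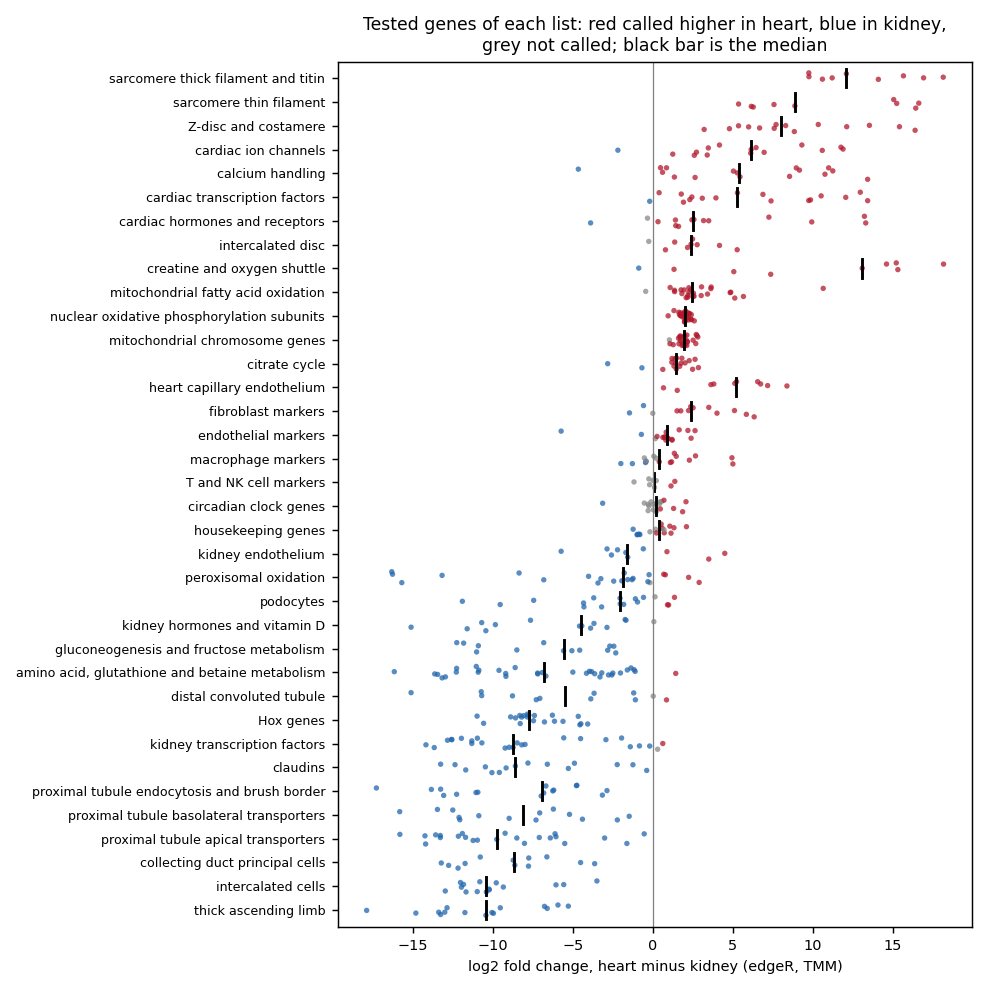
Log2 fold change, heart minus kidney, of every tested gene in 36 lists, without the ventricular marker list described above; red points were called higher in heart, blue in kidney, grey were not called, and black bars are medians. The creatine and oxygen list (median 13.10) and the thick filament list (median 12.11) lie furthest to the right of the lists drawn and the thick ascending limb list (median -10.45) furthest to the left, while the T cell, clock and housekeeping lists have medians of 0.06, 0.18 and 0.37.

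Among genes of energy metabolism, those with a muscle form had the larger fold changes listed here. Of 9 genes for creatine and oxygen shuttling 8 were higher in heart (median 13.10). Ckm, the muscle creatine kinase, was at 3671, 3403 and 3470 CPM in the hearts and at most 0.267 CPM in a kidney, and its mitochondrial partner Ckmt2 had 2 counts over the kidneys. Slc6a8, the creatine transporter, was higher in kidney, with 269, 264 and 275 CPM in the hearts and 433, 592, 504 and 456 CPM in the kidneys. Gatm, which makes the creatine precursor, was 104-fold higher in kidney, at 1709, 1966, 1780 and 1138 CPM, and Gamt, which completes creatine, was 2.70-fold higher in heart.

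Mitochondrial fatty acid oxidation was higher in heart for 25 of 26 tested genes (median 2.44). Cd36, which takes up fatty acids, was at 375, 430 and 335 CPM in the hearts and 7.74 to 13.0 CPM in the kidneys. Cpt1b, the muscle carnitine palmitoyltransferase, was 50.4-fold higher, Acadl (long-chain acyl-CoA dehydrogenase) 10.7-fold and Hadhb, a subunit of the trifunctional protein, 8.26-fold. Eci2, an enoyl-CoA isomerase, was not called, with 200.1 to 238 CPM in the hearts and 202, 351, 376 and 297 CPM in the kidneys, and was called higher in kidney without Kidney Sham 1 (log2 fold change -0.61, adjusted p 8.83e-05), with DESeq2 (-0.44, adjusted p 0.020) and under total count scaling (-1.07, adjusted p 0.000728).

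All 32 nuclear genes of oxidative phosphorylation were higher in heart, in a narrow band around a median of 2.03. Atp5f1b, the catalytic subunit of ATP synthase, was at 7261, 7464 and 7274 CPM in the hearts and 2017, 2289, 2270 and 2165 CPM in the kidneys, 3.35-fold higher, and Cox4i1 was 4.14-fold higher. Genes of the mitochondrial chromosome were higher for 26 of 27 tested (median 1.95). Those tested include short genes of 75 bases or fewer besides the protein-coding ones. The gene not called, AY172581.6 (66 bases), was a short one. Mt-co1 was at 94500, 101900 and 102000 CPM in the hearts and 23050, 21800, 24720 and 27440 CPM in the kidneys. Both groups kept their direction under total count scaling, with medians of 1.40 and 1.32. The citrate cycle was higher in heart for 16 of 18 genes (median 1.47), led by Cs (citrate synthase, 7.22-fold). Pc (pyruvate carboxylase, which also starts glucose synthesis) was higher in kidney, at 73.5, 74.2 and 76.1 CPM against 402, 551, 646 and 518 CPM, and so was Suclg2, the GTP-forming subunit of succinyl-CoA ligase, by 1.61-fold.

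Every tested gene of the 3 proximal tubule lists was higher in kidney. The genes of its endocytic machinery and brush border summed to 17550 to 19450 CPM in the kidneys and 133.8 to 164.6 CPM in the hearts, and 16 of 16 were higher in kidney (median -6.91). Lrp2 (megalin), the receptor that takes filtered protein back up, was at 7500, 8365, 8385 and 8591 CPM in the kidneys and 0.737, 0.533 and 0.342 CPM in the hearts. All 23 apical transporter genes were higher in kidney (median -9.77), from Slc34a1 down to Aqp1, the water channel that endothelium also makes, which was at 628, 894 and 670 CPM in the hearts and 1105, 1003, 1104 and 1042 CPM in the kidneys (1.46-fold). All 14 basolateral transporters were higher in kidney (median -8.15), with Slc22a6, the organic anion carrier, 4947-fold higher at a counting interval of 1693 to 23990.

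The thick ascending limb list had the lowest median of the lists plotted. All 15 genes were higher in kidney (median -10.45, or -9.87 with genes without heart counts at their bound), and the list summed to 5528 to 6789 CPM in the kidneys and 5.60 to 5.90 CPM in the hearts. Slc12a1, the furosemide-sensitive salt transporter, was at 1799, 1189, 1095 and 1418 CPM in the kidneys with 4 counts over the hearts. Kcnj1, the potassium channel that recycles potassium there, was at 409, 317, 271 and 269 CPM with none in heart.

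The distal convoluted tubule list had 10 of 12 genes higher in kidney (median -5.48). Calb1, the calcium buffer calbindin, was at 327, 446, 503 and 288 CPM in the kidneys and at 0 in the hearts, and Slc12a3 was 133-fold higher. Stk39, the kinase that switches on Slc12a3, was not called, with 81.9 to 98.9 CPM in the hearts and 77.7 to 104 CPM in the kidneys. Slc8a1, the sodium-calcium exchanger, was the gene of this list that was higher in heart, at 328, 363 and 325 CPM against 175, 199, 223 and 152 CPM, and that call was lost under total count scaling.

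Every tested collecting duct gene was higher in kidney, 12 of 12 for principal cells (median -8.69) and 15 of 15 for intercalated cells (median -10.42). Aqp2, the water channel under vasopressin control, was at 534, 337, 309 and 222 CPM in the kidneys with 1 count over the hearts. The sodium channel subunits Scnn1a, Scnn1b and Scnn1g varied less, with 107 to 135, 57.7 to 67.7 and 46.6 to 54.3 CPM in the kidneys. Foxi1, the factor that sets intercalated cell identity, was at 35.1, 43.6, 49.3 and 47.9 CPM in the kidneys and at 0 in the hearts. Rhcg, an ammonia channel, was at 114, 127, 125 and 120 CPM with 2 counts over the hearts.

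Podocyte genes were less clear-cut. Of 17 tested 13 were higher in kidney and 3 in heart (median -2.04). Nphs1 (nephrin) was at 93.5, 92.2, 99.4 and 97.0 CPM in the kidneys, with 3 counts over the hearts. Synpo (synaptopodin), Clic5 and Plce1 were higher in heart by 1.98-fold, 2.56-fold and 1.89-fold. Wt1, a podocyte factor that mesothelium also makes, was not called, with 15.3 to 19.1 CPM in the hearts and 14.0 to 17.9 CPM in the kidneys.

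Kidney transcription factors were higher in kidney for 23 of 25 tested (median -8.75). Hnf4a, which drives proximal tubule genes, was at 840, 1007, 940 and 969 CPM with 3 counts over the hearts. Pou3f3 was at 159, 137, 126 and 151 CPM, without a count in heart. Pax8 was at 185, 128, 97.2 and 162 CPM in the kidneys and at 0.842, 0 and 0.228 CPM in the hearts. Ppara, the fatty acid receptor, was 1.55-fold higher in heart (adjusted p 0.019), a call lost under total count scaling, without the count filter (adjusted p 0.071), without Heart Sham 2 (0.063) and without Heart Sham 3 (0.055). Irx3 was not called, with 51.4, 19.4 and 32.6 CPM in the hearts and 25.7 to 31.9 CPM in the kidneys, but was called higher in heart without Heart Sham 2 (log2 fold change 0.57, adjusted p 0.011).

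Hormone genes of the kidney were higher in kidney for 13 of 14 tested (median -4.52). Kl (klotho, the co-receptor for FGF23) was at 795, 956, 914 and 796 CPM against 0.421, 0.533 and 0.570 CPM, 1704-fold higher. Cyp24a1, which breaks down vitamin D, was at 46.2, 33.1, 19.5 and 38.7 CPM with none in heart, and Vdr, the vitamin D receptor, was 12.9-fold higher in kidney. Ace, the angiotensin converting enzyme, was not called, with 12.6 to 23.9 CPM in the hearts and 12.7 to 19.98 CPM in the kidneys.

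Genes of glucose synthesis, fructose use and amino acid metabolism were mostly higher in kidney. All 13 genes of gluconeogenesis and fructose use were higher in kidney (median -5.59), led by G6pc, the final enzyme of glucose release, with 148, 224, 282 and 327 CPM and 1 count over the hearts. Pck1, the rate-setting enzyme of glucose synthesis, was at 1234, 2811, 3353 and 3551 CPM, so Kidney Sham 1 had less than 50% of the level of each other kidney. Of 34 genes for amino acid, glutathione and betaine metabolism 33 were higher in kidney (median -6.81). Glul (glutamine synthetase) was 5.92-fold and Gclc, which starts glutathione synthesis, 121-fold higher, and Gamt alone was higher in heart. Peroxisomal oxidation was divided, with 17 of 22 higher in kidney and 4 in heart (median -1.87): Hao2, a hydroxyacid oxidase, was at 2528, 2514, 2595 and 2988 CPM with 1 count over the hearts, whereas Phyh, which starts the breakdown of phytanic acid, was 7.45-fold and Crat, carnitine acetyltransferase, 4.72-fold higher in heart.

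Related genes often divided between the organs. The 37 pairs of a muscle form and a related gene were chosen for known roles, but with earlier results of these data known. The muscle form was higher in heart in 35 of them and the other form was higher in kidney in 22. These counts describe the chosen pairs only. In 21 pairs the muscle form was called in heart and the other form in kidney, in 15 of them past 2-fold for both genes. Esrrg with Esrrb was called the other way. Esrrg was 59.4% of the summed TPM of that pair in heart and 68.9% in kidney. The Esrrg call was lost without some single libraries, as given above. In TPM, Fxyd1, the phospholemman subunit of the sodium pump, made up 98.0% ± 0.58 (SD, n = 3) with Fxyd2 in heart and 0.413% ± 0.077 (SD, n = 4) in kidney. Slc25a4, the muscle ADP/ATP carrier, was 97.2% of its pair with Slc25a5 in heart and 25.3% in kidney, and Pygm, muscle glycogen phosphorylase, was 99.95% of its pair with Pygl in heart and 6.26% in kidney.

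Other pairs divided less. Eno3 (muscle enolase) was only 53.4% ± 4.6 (SD, n = 3) of its pair with Eno1 in heart, although the calls were opposite. In 9 pairs both genes were higher in heart, such as Ldhb with Ldha (lactate dehydrogenase, 84.7% Ldhb in heart and 82.6% in kidney) and Hk2 with Hk1 (hexokinase). Fbp2 and Fbp1, the fructose bisphosphatases, were both higher in kidney, although the Fbp2 call was lost without Heart Sham 3 (adjusted p 0.114) or Kidney Sham 4 (0.052). The N-cadherin gene Cdh2 was 34.3% ± 3.9 (SD, n = 4) of its pair with Cdh1 (E-cadherin) in kidney and 99.99% in heart, so the kidney held much of both.

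**Figure D3:**
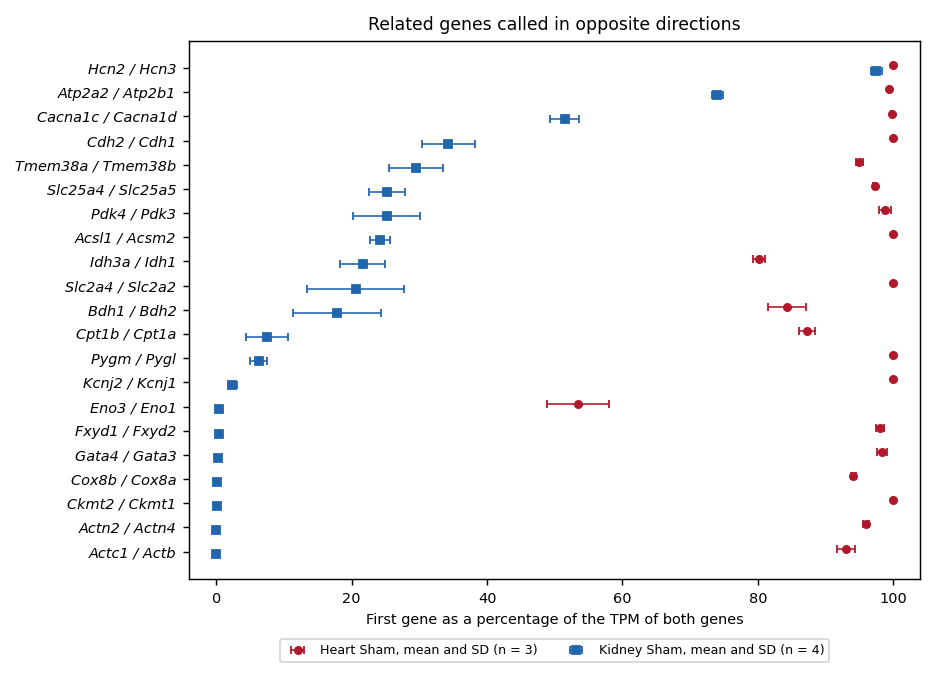
Share of the first gene in the summed TPM of 21 gene pairs, the first called higher in heart and the second in kidney. Circles are means of 3 hearts, squares means of 4 kidneys, with SD. Esrrg with Esrrb, called the other way, is not drawn. Among the pairs drawn, Eno3 with Eno1 (53.4%) had the lowest share in heart and Hcn2 with Hcn3 (97.5%) the highest in kidney. A higher share in heart than in kidney follows from choosing pairs by these calls.

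Hox genes, which mark position along the body axis, were higher in kidney for all 21 tested (median -7.76, or -5.49 with the 9 genes without heart counts at their bound). Summed, they gave 357.7 to 396.0 CPM in the kidneys and 2.67 to 4.95 CPM in the hearts. Hoxb8 was the highest in kidney on the CPM scale, with 74.6, 63.6, 53.4 and 67.0 CPM, and Hoxd9 was at 58.1, 70.1, 64.4 and 49.7 CPM. The hearts' counts lay mostly in Hoxb2 to Hoxb4, the genes nearest the front end of their cluster among those tested, with means of 0.85, 0.97 and 0.48 CPM. Irx and T-box genes divided. Irx4 was 184-fold and Irx5 1.52-fold higher in heart, while the Irx5 call was lost under total count scaling and without Heart Sham 1 (adjusted p 0.053). Irx1 was 3.89-fold and Irx2 2.64-fold higher in kidney, and Tbx2, a T-box repressor, was 7.61-fold higher in kidney with 57.6, 58.1, 59.1 and 58.1 CPM.

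The proton pump (V-ATPase) contains subunits used by every cell and subunits used by acid-secreting cells. Of 20 subunit genes 15 were higher in kidney and 3 in heart (median -0.79). Atp6v0a4, Atp6v1b1, Atp6v0d2 and Atp6v1g3, known from intercalated cells, had log2 fold changes from -9.80 to -12.99, and Atp6v1c2 had -5.58. Atp6v0a4 was at 489, 550, 571 and 582 CPM in the kidneys and at most 0.210 CPM in a heart. Of the other 15 genes all lay between -2.59 and 1.39. Atp6v1g1 and Atp6v1f were not called, and Atp6v1d, Atp6v0a1 and Atp6v1g2 were higher in heart, calls that total count scaling did not keep; that of Atp6v1g2 was also lost without Heart Sham 2 (adjusted p 0.057).

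**Figure D4:**
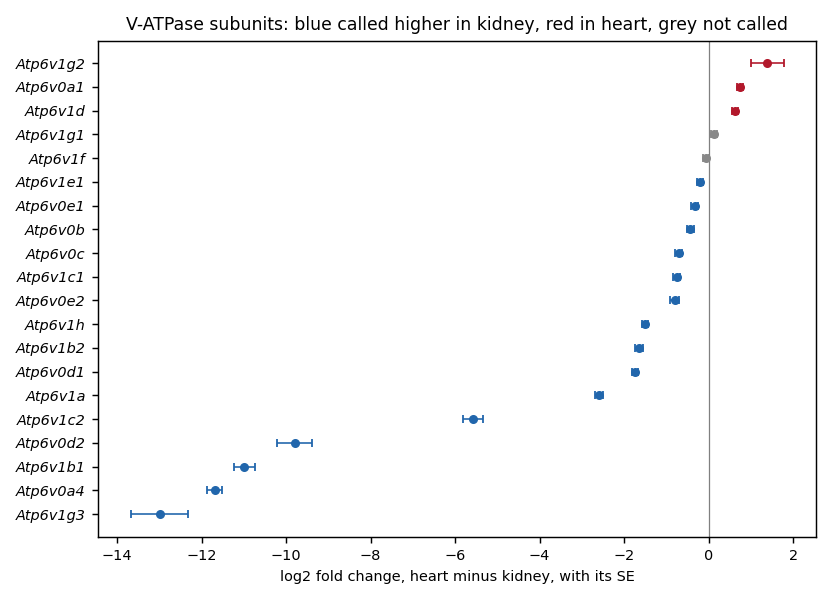
Log2 fold change, heart minus kidney, with its SE (edgeR) for 20 V-ATPase subunit genes; blue points were called higher in kidney, red in heart, grey were not called. The 5 genes from Atp6v1c2 (-5.58) to Atp6v1g3 (-12.99) stand apart from the other 15, and the red calls at the top were lost under total count scaling.

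Across all solute carriers 192 of 297 tested were higher in kidney and 64 in heart (median -1.33). All 15 claudins, the proteins that set tight junction permeability, were higher in kidney (median -8.60), led by Cldn2, the claudin of the leaky proximal tubule, at 274, 302, 314 and 297 CPM with 2 counts over the hearts. Of 7 aquaporins 6 were higher in kidney. Aqp7, a glycerol channel, was 1.59-fold higher in heart and lost that call under total count scaling. Cytochrome P450 genes were higher in kidney for 23 of 33 and in heart for 3 (median -2.0), and collagens for 20 and 12 of 35 (median -1.39). Ribosomal protein genes were higher in heart for 55 of 68 and in kidney for 2 under TMM (median 0.55), but under total count scaling for 7 and 21 (median -0.08), so their direction depends on the scaling.

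The marker lists of general endothelium, fibroblasts and mural cells, which both organs hold, had genes called in either direction. Of 18 general endothelial markers 15 were higher in heart and 2 in kidney (median 0.86), and Kdr, the VEGF receptor, was not called, with 159.5 to 168 CPM in the hearts and 136 to 163 CPM in the kidneys. Kdr was called higher in heart without Kidney Sham 2 (log2 fold change 0.20, adjusted p 0.044) and higher in kidney under total count scaling (-0.47, adjusted p 0.000168). For the whole list that scaling gave 8 and 4 calls. Plvap, which forms the diaphragm of fenestrated capillaries, was at 3.89, 1.73 and 5.24 CPM in the hearts and 263, 179, 165 and 188 CPM in the kidneys (54.8-fold). All 10 genes listed for heart capillary endothelium were higher in heart (median 5.18), among them Gpihbp1, which carries lipoprotein lipase across the capillary wall, at 34.4, 43.6 and 25.2 CPM against at most 0.264 CPM. Of 10 genes listed for kidney endothelium 7 were higher in kidney. Pi16, Gata5 and Tbx3 of that list were higher in heart, by 11.5-fold, 22.7-fold and 1.85-fold.

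Fibroblast markers were higher in heart for 10 of 13 (median 2.37). Gsn (gelsolin) was at 2127, 2142 and 2319 CPM in the hearts and 123 to 150 CPM in the kidneys, and Lum (lumican) was 81.0-fold higher. Pdgfra was not called, at 113 to 149 CPM in the hearts and 117 to 132 CPM in the kidneys, and Fn1 (fibronectin) was 2.76-fold higher in kidney. Of 12 pericyte and smooth muscle genes 6 were higher in heart and 2 in kidney (median 0.90). Acta2, Myh11 and Pdgfrb were not called. Without Kidney Sham 2 the first pair were called higher in heart (log2 fold changes 0.56 and 0.44), and DESeq2 also called Acta2 (0.40, adjusted p 0.045). Pdgfrb was called higher in heart without Heart Sham 1 or Kidney Sham 1 (0.24 and 0.22) and higher in kidney under total count scaling (-0.45, adjusted p 0.000392). Abcc9 and Rgs5 were 8.26-fold and 9.60-fold higher in heart. Cardiomyocytes also make Des and Abcc9, so these genes do not mark the mural cells alone in heart.

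Macrophage markers divided by gene. Of 17 tested 9 were higher in heart and 4 in kidney, with a median of 0.40 that became -0.23 under total count scaling. Cd163, a scavenger receptor of resident macrophages, was at 28.8, 27.4 and 22.1 CPM in the hearts and 0.0890, 0.726, 0.560 and 1.73 CPM in the kidneys (33.7-fold), and F13a1 was 30.4-fold higher. Lyz2 (lysozyme) and Cx3cr1 (the fractalkine receptor) were higher in kidney, by 2.43-fold and 4.03-fold, and Csf1r, common to macrophages, was not called at 55.0 to 61.3 CPM and 43.2 to 55.1 CPM, but was called higher in heart without Kidney Sham 1 or Kidney Sham 4 (log2 fold changes 0.23 and 0.24). Of 8 T and NK cell genes 2 were called (Cd2 and Nkg7, higher in heart, and not under total count scaling). The Nkg7 call was also lost without Heart Sham 3 (adjusted p 0.052). The summed levels of the organs overlapped, at 32.6 to 44.5 CPM in the hearts and 29.3 to 36.2 CPM in the kidneys for T and NK cells, and at 3.19 to 4.0 CPM and 2.64 to 4.36 CPM for B and plasma cells. Most of the T and NK sum was Cd4, with means of 24.11 CPM in the hearts and 22.55 CPM in the kidneys. Cd3e, Cd3d and Cd3g each had a mean below 1 CPM in both organs.

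Markers of fat, blood and other tissues were also counted. Of 6 tested adipocyte markers 4 were higher in heart and 2 in kidney (median 2.66), and the list summed to 379.8 to 501.5 CPM in the hearts and 24.0 to 50.1 CPM in the kidneys. The 2 higher in kidney were Adipoq and Cidec. Adipoq, the adipocyte hormone, was at 12.8, 7.66, 7.99 and 19.0 CPM in the kidneys and had 2 counts over the hearts, with Cidec at 2.94 to 6.61 CPM and 0. Fabp4, which capillaries of the heart also make, was 102-fold higher in heart, at 283 to 375 CPM. Lipe (hormone-sensitive lipase), Pparg (an adipocyte nuclear receptor) and Cfd (adipsin) were 7.67-fold, 5.22-fold and 9.21-fold higher in heart. Globin transcripts were higher in heart, with Hba-a2 at 1665, 1524 and 1042 CPM against 415, 390, 390 and 263 CPM, and 4 of 5 red cell genes were higher in heart. The red cell list summed to 1461 to 2429 CPM in the hearts and 594 to 761 CPM in the kidneys. Slc4a1, which intercalated cells also make, was 11.3-fold higher in kidney. Psca, a urothelial marker below the filter for testing, was at 9.79, 3.37, 0.140 and 0.144 CPM in the kidneys. Of 7 tested liver markers 6 were higher in kidney, among them Fga (fibrinogen alpha, 10.9 to 17.8 CPM with none in heart). Ttr (transthyretin) was 21.55-fold higher in heart. Alb (albumin), below the filter for testing, had 9 counts over the hearts and 12 over the kidneys. Schwann cell and neural markers were higher in heart for 6 of 9 and in kidney for 1, with Sox10 at 4.21, 6.13 and 1.37 CPM in the hearts and at most 0.210 CPM in a kidney. What part these tissues had in the differences was not tested.

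Genes of the circadian clock differed little between the organs. Of 18 tested 5 were higher in heart and 1 in kidney (median 0.18), against 78.0% of all genes called. Under total count scaling 3 were higher in heart and 9 in kidney, with a median of -0.44. Per1 was at 104, 134 and 116 CPM in the hearts and 98.4 to 135 CPM in the kidneys, and Dbp, an output gene of the clock, at 165, 196 and 195 CPM and 110.1, 186, 236 and 186 CPM, so the organs overlapped. Hlf, a factor related to Dbp, was 8.70-fold higher in kidney. Bhlhe41 was 4.25-fold higher in heart.

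Immediate early genes, which respond within minutes to stimulation or handling, were higher in kidney for 9 of 18 and in heart for 2 (median -0.81). Fos was at 6.95, 7.59 and 4.90 CPM in the hearts and 77.7, 27.4, 32.7 and 38.7 CPM in the kidneys. Dusp1 and Klf4 were higher in heart, by 1.99-fold and 3.04-fold. Genes often used as references also differed. Of 16 tested 8 were higher in heart and 5 in kidney (median 0.37), a share near the 78.0% called over all genes. Under total count scaling 4 were higher in heart and 8 in kidney (median -0.25). Gapdh was at 3642, 3889 and 3677 CPM in the hearts and 789, 792, 961 and 938 CPM in the kidneys, a log2 fold change of 2.10. Actb went the other way, at 1093, 866 and 1003 CPM against 1884, 1763, 1631 and 1661 CPM. Tbp was not called, with a log2 fold change of -0.18.

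The 4 kidneys differed among themselves by segment. Kidney Sham 1 had the highest summed level of the principal cell list, 1764 CPM against 1334 to 1518 CPM in the others, and of the thick ascending limb list, 6789 CPM against 5528 to 6436 CPM. It had the lowest level of gluconeogenesis genes, 6799 CPM against 9680 to 11580 CPM, of basolateral proximal transporters, 2870 CPM against 3698 to 3962 CPM, and of intercalated cell genes, 1366 CPM against 1664 to 1702 CPM. It was also highest for Aqp3, with 166 CPM against 68.2 to 103 CPM, and for Psca. The amount of each kidney region in the samples was not tested. For each list named here the lowest kidney stood above the highest heart, which had 35.4 CPM for principal cells and 213.9 CPM for gluconeogenesis.

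**Figure D5:**
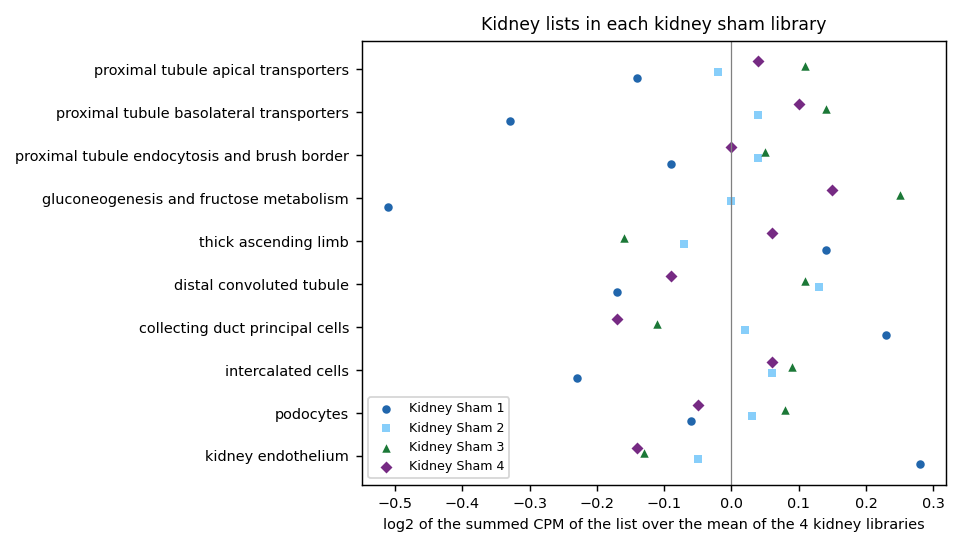
Log2 ratio of the summed CPM of each list in a kidney library to the mean of the 4 kidneys, for 10 kidney lists. Kidney Sham 1 (circles) lies furthest left for the gluconeogenesis list (-0.51) and furthest right for principal cells (0.23) and kidney endothelium (0.28).

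The organ difference was also fitted in the operated rats, whose libraries were not used above. In NX rats 9576 of 13738 genes tested were called between heart and kidney (69.7%), and in AVF+NX rats 11157 of 14183 (78.7%). Among genes tested in both, 82.1% of the calls in sham rats were called in the same direction in NX rats, which is 92.0% of the NX calls, and 20 genes were called in opposite directions, none of them past 2-fold in both. For AVF+NX the shares were 80.1% and 79.5%, with 482 opposite calls, of which 8 were past 2-fold in both. A test of the change of the organ difference itself called 24 of 15222 genes (0.158%) for NX against sham and 4248 (27.9%) for AVF+NX against sham. Heart libraries of the AVF+NX group had 11889483 to 48079431 counts and their kidney libraries 9503652 to 10416535, and the part of this depth difference in that count was not tested.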

How the data were processed

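Read counts per gene were measured in 23 libraries, of which 7 were used for the sham comparison. The deposited files hold whole-number counts per gene, which the authors did not normalise, per the file headers. The submitters' processing notes list the aligner STAR 2.5.2b, the trimmer Trimmomatic 0.36 and Subread 1.5.2 with featureCounts. Not given in the sources used here were the genome build, the strand setting and the treatment of reads that match several genes. Genes were named from symbols in the deposited tables, which covered 15123 of 32552 identifiers, and 22 symbols that had become dates were not used.

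Counts were filtered with filterByExpr, scaled by TMM and tested with edgeR 4.0.16 (R 4.3.3), using the robust quasi-likelihood F test with Benjamini-Hochberg adjustment at 0.05 over all 14140 genes tested, and glmTreat against a 2-fold difference. Fold changes other than log2 fold changes are ratios of mean CPM, a group at 0 was set to a floor of 3 counts over the group, and with 1 to 3 counts in the lower organ a 95% interval for counting error alone is given where a fold is printed. The scripts were tested on simulated data. DESeq2 1.42.0, limma 3.58.1 (voom), other scalings and filters, a replicate block and leaving out each library were tried. Genes were named by rank in TPM, by the largest fold changes, by rank and opposite direction within each gene list, as members of the gene pairs and as organ markers, and further genes of the lists were added after their values were seen. Some genes and gene pairs are not reported here. The members, gene lists and gene pairs were chosen with earlier results of these data known. Within each group, libraries differed by more than counting noise allows (chi-square per degree of freedom 6.15 to 18.0). For a single value, 3 against 4 libraries cannot give an exact two-sided permutation p below 0.0571.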

Additional observations from a re-analysis of the deposited data

Results flagged for a closer look

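In 8 named genes 1 kidney library stood far from the other 3, by the gap to its nearest neighbour over the range of the 4. Chance flags about 1 in 20 groups. Of the 206 named genes, only those with a mean of at least 1 CPM in the kidneys were looked at. Kidney Sham 4 was low for Myl3 (2.37 CPM) and Hba-a2 (262.7 CPM) and high for Hao2 (2988 CPM) and Cfd (3.88 CPM). Kidney Sham 1 was low for Gamt (32.3 CPM) and Bhlhe41 (5.43 CPM). Kidney Sham 2 was high for Tmed6 (73.8 CPM) and low for Hoxb4 (5.41 CPM).

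The organ difference itself changed with the operation for 1 of the 206 named genes in NX and 39 in AVF+NX. Over all 15222 genes tested such a change was called for 0.158% in NX and 27.9% in AVF+NX. In NX rats the difference for Plce1 was 0.89 log2 units above that in sham rats (adjusted p 0.043). In AVF+NX rats the 10 largest changes were 6.33 for Klk1b3, -4.15 for Cfd, -3.98 for Lum, -3.69 for Gpihbp1, -3.40 for Cox6a2, -3.23 for Cd163, -2.91 for Rmrp, -2.74 for Fabp4, -2.70 for Cd2 and -2.46 for Scnn1b. A negative value is an organ difference lower, in the direction of heart over kidney, than in sham rats. Some of these changes rest on an organ near 0 in sham rats and are imprecise. Klk1b3 had no count in any sham heart (SE of the change 1.8). Over the sham kidneys Cox6a2 had 2 counts (SE 1.24) and Gpihbp1 had 5. The heart libraries of AVF+NX rats ranged in depth as given in the report, and its part in these changes was not tested.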

How the results depend on the processing

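The count of called genes stayed within 1.5 times of 11033 under every alternative run, from 10614 to 11894. Leaving out 1 library gave 10614 to 10879 called genes, of which 5019 to 5166 were higher in heart and 5559 to 5713 in kidney, and 5121 to 5238 past 2-fold, with 2208 to 2276 and 2894 to 3006. The labels do not say whether heart and kidney libraries of the same number came from the same rat. Correlations of their deviations were 0.074, 0.086 and 0.066, against -0.062 to 0.046 for libraries of different numbers. Each heart correlated best with its own number. Whether they were paired was not tested, and the main fit treated them as unpaired. A replicate block gave 10747 called genes. Total count scaling gave 2907 calls in heart and 8851 in kidney, and 1440 and 4706 past 2-fold. A minimum of 5 TPM gave 73 genes of heart alone and 529 of kidney alone, and CPM gave 659 of kidney alone. As a share of TPM, mitochondrial genes took 35.5% in heart and 16.8% in kidney, and thick and thin filament genes 3.16% and 3.66% in heart. As a share of nuclear counts these filament genes took 7.21% and 4.24%.

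For 206 named genes, 3417 of 3501 results under the alternatives kept direction and side of the threshold. A call was lost in 35 and gained in 29 results, and 33 changed sign, of which 4 lost and 9 gained a call. A replicate block ended the calls of Esrrg, Npr1 and Fbp2 and called Acta2, Myh11 and Csf1r higher in heart. The fit of all 23 libraries ended the calls of Rmrp and Esrrg, and limma that of Myl7. Under total count scaling the log2 fold changes that changed sign were -0.31 for Npr1, -0.61 for Stk39, -0.49 for Wt1, -0.003 for Ppara, -0.32 for Irx3, -0.57 for Ace, -0.005 for Irx5, -0.50 for Atp6v1g1, -0.006 for Atp6v1d, -0.47 for Kdr, -0.23 for Acta2, -0.33 for Myh11, -0.45 for Pdgfrb, -0.43 for Csf1r, -0.60 for Per1 and -0.58 for Dbp. With a replicate block they were -0.018 for Stk39, 0.0 for Pdgfra and -0.042 for Per1. Leaving out 1 library gave log2 fold changes of -0.052 to 0.11 for Stk39, -0.11 to 0.57 for Irx3, -0.27 to 0.23 for Ace, -0.14 to 0.074 for Pdgfra, -0.068 to 0.12 for Per1 and -0.13 to 0.19 for Dbp, with a change of sign in each. The cause was not tested.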
